A study of Mus musculus with 24 samples.

Results

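Complement component 3 (C3), complement component 4b (C4b), the 3 chains of C1q (C1qa, C1qb and C1qc) and the receptor for C3a (C3ar1) were followed in mouse oligodendrocyte cultures with and without ethanol. These 6 genes, of 55359 in the count table, were listed by name. They were chosen by values already measured in these wells: the higher C3 at both ethanol concentrations and the difference in microglial transcripts between the experiments. Their differences between groups are therefore given as a description, with intervals and with neither p-values nor calls of significance. C3 and C4b are treated apart from the C1q chains and C3ar1, which in brain tissue are known as microglial transcripts.

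Complement is a cascade of plasma and tissue proteins that tags surfaces for removal and recruits phagocytes. C1q recognises its targets and starts the classical pathway, which cleaves C4 and then C3, the protein on which the classical, lectin and alternative pathways converge. Cleaved C3 leaves C3b on the surface and releases C3a, a small peptide that acts through C3ar1. In the brain, C1q comes largely from microglia, C3 is a known marker of reactive astrocytes, and both have been linked to the removal of synapses.

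Each library was made from 1 culture well. The cells were immature oligodendrocytes taken from the cortex of C57Bl6J pups aged 5 to 7 days by magnetic beads that carried an antibody to O4, a lipid antigen on the surface of the oligodendrocyte lineage. They were grown on poly-D-lysine and laminin, differentiated for 3 days mainly with triiodothyronine (T3, a thyroid hormone), and kept for 3 more days without ethanol or with it. In experiment 1, 6 control wells (0 mM) stood beside 6 wells at 30 mM ethanol, and in experiment 2, 6 control wells stood beside 6 wells at 10 mM. All 24 wells shared strain, age, sort and differentiation. Controls were held in an incubator of their own, so the effect of ethanol and that of the incubator cannot be told apart, and neither can dose and experiment, since each dose was used once. The labels call the wells biological replicates without saying which animals they came from, so p-values measure the spread between wells, which may be partly technical.

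Reads from 3′ tag sequencing start near the end of a transcript, so their number does not grow with transcript length. Total counts were between 1184609 and 1817028 per well. Levels are given in CPM, counts per 1000000 of the library size after TMM scaling (edgeR's trimmed mean normalization, here over all 24 wells), and 3 counts, taken as the floor of detection, were worth 1.70 to 2.53 CPM. All 6 genes lay above that floor in every well, and all 6 passed the filter on low counts in every comparison. A gene was called changed when its Benjamini-Hochberg adjusted p, over all genes tested by edgeR's quasi-likelihood test, was under 0.05.

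The sorted cells were checked against lists of cell type markers. Mature oligodendrocyte markers (8 genes, Mbp among them) were above the floor in all wells and summed to between 6698 and 16054 CPM. Markers of other cells were present as well. The 11 astrocyte markers summed to between 4234 and 7495 CPM and the 18 microglia markers to between 196 and 337 CPM in experiment 1 and between 2401 and 2835 CPM in experiment 2. The wells labelled as oligodendrocytes thus also held RNA of astrocytes and microglia, and in bulk RNA more cells of a type and more RNA per cell cannot be told apart.

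The sequences just upstream of the genes are shown as a description, and whether they bear on the levels of the genes was not tested. RefSeq's promoter table (build GRCm38.p6) held 4 of the 6 genes, and the 250 bases before each start are given 5′ to 3′ on the gene's strand. All 4 genes lie on the minus strand: C3 at chr17:57228137-57228386, C1qb at chr4:136886201-136886450, C1qc at chr4:136892915-136893164 and C3ar1 at chr6:122856158-122856407. Capitals mark matches to any of 4 motifs: TTNNGNAA (a C/EBP type site), GAGGAA (the core of a PU.1 site), TTCNNNGAA (a STAT type site) and the kappaB consensus. The kappaB consensus was searched on the gene's strand only, and the others on both strands.
C3: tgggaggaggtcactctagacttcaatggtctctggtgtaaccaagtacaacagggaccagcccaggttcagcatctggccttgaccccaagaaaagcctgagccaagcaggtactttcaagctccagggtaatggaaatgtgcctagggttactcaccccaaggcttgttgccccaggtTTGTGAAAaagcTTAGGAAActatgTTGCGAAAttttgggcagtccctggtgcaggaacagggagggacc
C1qb: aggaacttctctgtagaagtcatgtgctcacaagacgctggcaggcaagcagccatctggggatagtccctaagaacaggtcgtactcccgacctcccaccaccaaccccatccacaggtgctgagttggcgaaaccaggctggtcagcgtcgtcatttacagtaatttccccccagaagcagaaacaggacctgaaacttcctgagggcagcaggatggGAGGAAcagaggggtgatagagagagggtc
C1qc: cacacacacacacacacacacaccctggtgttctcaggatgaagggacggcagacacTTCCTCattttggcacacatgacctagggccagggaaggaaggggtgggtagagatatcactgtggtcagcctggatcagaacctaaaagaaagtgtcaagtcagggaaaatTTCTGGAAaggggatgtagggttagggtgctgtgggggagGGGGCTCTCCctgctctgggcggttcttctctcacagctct
C3ar1: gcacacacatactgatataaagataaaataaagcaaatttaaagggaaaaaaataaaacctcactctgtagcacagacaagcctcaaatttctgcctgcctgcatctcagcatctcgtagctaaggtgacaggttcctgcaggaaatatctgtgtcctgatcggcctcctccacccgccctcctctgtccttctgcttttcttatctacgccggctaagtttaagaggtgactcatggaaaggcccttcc

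The C3 window held 3 matches to TTNNGNAA, starting 70, 58 and 45 bases before the start, and none to the other motifs. At least 1 such match was found in 36.9% of 32841 promoters of the same length, and 3 or more in 2.62%. The C1qb window held GAGGAA 30 bases before the start, and the C1qc window held it on the opposite strand 193 bases before, a motif found in 23.3% of promoters. The C1qc window also held TTNNGNAA 81 bases before the start and a kappaB match 41 bases before (kappaB in 5% of promoters, on the gene's strand only). TTCNNNGAA, found in 7.02% of promoters, was in none of the 4 windows, and the C3ar1 window held no match to any motif. C1qb, C1qc and C1qa follow each other on chromosome 4 with no other protein-coding gene between them, whereas C3 and C4b are both on chromosome 17 with different neighbours. No match overlapped with another. These matches describe letters and were not tested as sites.

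The first question was how the complement genes stood at each ethanol concentration. C3, the protein common to all complement pathways, was higher with ethanol at both doses, which is the pattern by which it was listed. C4b was slightly lower at 30 mM and slightly higher at 10 mM, and the C1q chains and C3ar1 lay near their controls at both. For scale, 9.67% of 13235 genes tested were called at 30 mM (3.02% higher, 6.65% lower), and at 10 mM 0.657% of 13538 (0.391% higher, 0.266% lower). All 6 ethanol wells lay on one side of all 6 control wells for 4.05% of genes at 30 mM and for 0.768% at 10 mM. Of the 12627 genes tested at both doses, 0.174% were called higher at both. Since the members were picked with such values known, nothing is read from these shares about them.

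C3 in the controls of experiment 1 was 451 CPM in the lowest well, 564 at the median and 653 in the highest, from 572 to 1106 counts. With 30 mM ethanol the lowest well was at 986, the median at 1070 and the highest at 1362 CPM. Every ethanol well was above every control well, as for 0.612% of genes tested. Means were 567 ± 67.1 CPM without ethanol and 1101 ± 134 CPM at 30 mM (SD, n = 6 each). C3 was therefore 2.01-fold higher, or 1.01 on the log2 scale (SE 0.0681, 95% interval 0.87 to 1.14). Replicate 2 at 30 mM held the value of 1362 CPM, the other 5 reached 1097 CPM, and without replicate 2 the log2 fold change was 0.95.

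In experiment 2 the C3 controls lay between 516 and 620 CPM with a median of 551, and the 10 mM wells between 709 and 787 CPM with a median of 761. Again no ethanol well overlapped with a control well (0.51% of genes tested were higher in this way and 0.259% lower). The means were 558 ± 34.4 CPM (SD, n = 6) without ethanol and 753 ± 30.3 CPM (SD, n = 6) with 10 mM. C3 was 1.33-fold higher, or 0.41 on the log2 scale (SE 0.0520, 95% interval 0.31 to 0.52). By signed log2 fold change, counted from the most increased gene down, C3 ranked 13 of 13235 genes at 30 mM and 181 of 13538 at 10 mM. Genes that were lower with ethanol do not enter this rank by the size of their change. The median log2 fold change of all genes was 0.02 at 30 mM and -0.00 at 10 mM.

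Between the experiments the C3 controls did not stand apart, with a log2 difference (experiment 1 minus experiment 2) of -0.02 (95% interval -0.13 to 0.10). The ethanol change of C3 was larger at 30 mM in experiment 1 than at 10 mM in experiment 2, by 0.58 on the log2 scale (SE 0.0903, 95% interval 0.40 to 0.76). Over all 14655 genes tested for such a difference, 3.28% were called (0.88% in this direction, 2.4% in the other). The order of C3 levels was therefore 30 mM, then 10 mM, then the controls of both experiments, whose wells overlapped.

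**Figure D1:**
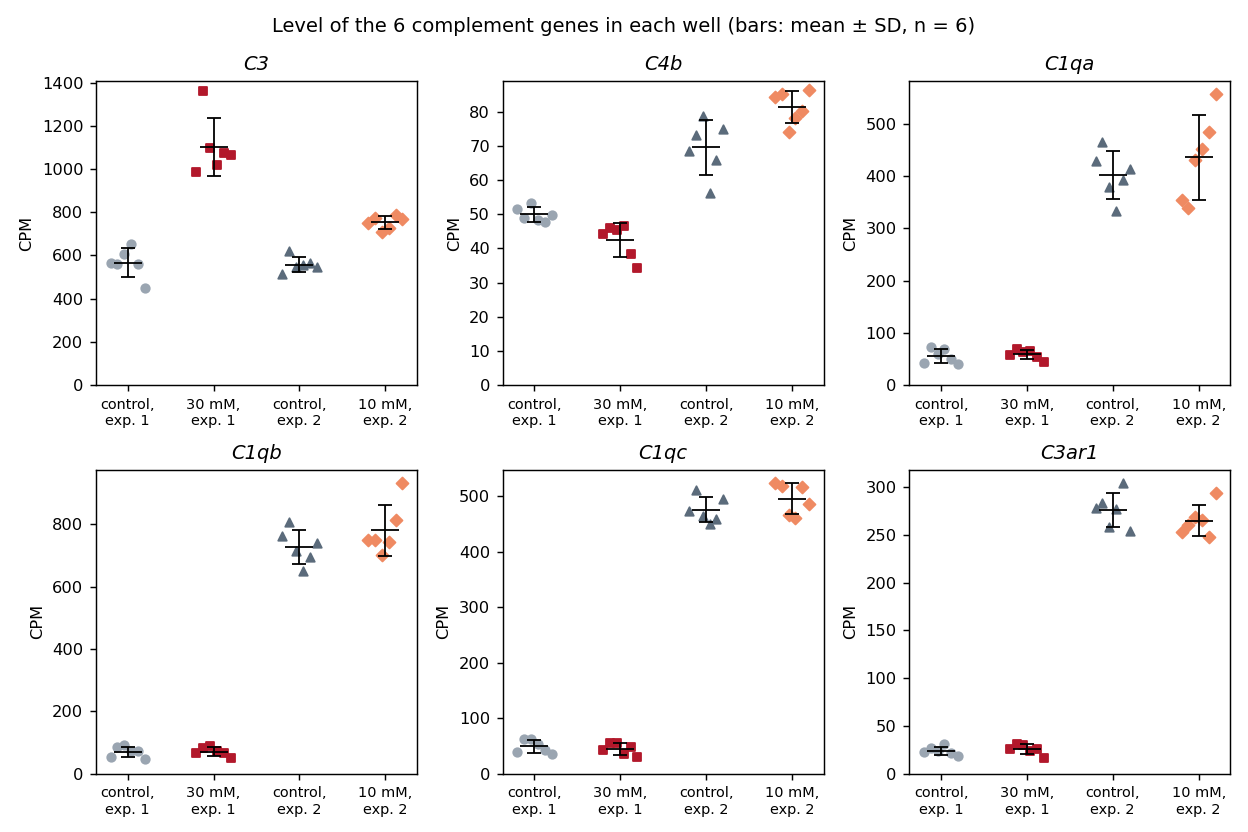
CPM of the 6 complement genes in each of the 24 wells, by group, with the mean and SD of 6 wells as bars and a separate linear scale for each gene. C3 stands higher in both ethanol groups than in their controls (986 to 1362 against 451 to 653 CPM, and 709 to 787 against 516 to 620 CPM), while the C1q genes and C3ar1 part the experiments and not ethanol from control.

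C4b, the classical pathway component that is cleaved before C3, was near 50 CPM in experiment 1. Its control wells ran from 47.8 through a median of 49.2 to 53.4 CPM, and its 30 mM wells from 34.3 through 44.7 to 46.5 CPM. All ethanol wells were below all control wells on this scale (3.44% of genes tested were lower in this way), but with CPM from the total count alone the groups overlapped, at 35.6 to 47.9 against 45.1 to 51.3 CPM. The means were 49.96 ± 2.14 CPM (SD, n = 6) in controls and 42.4 ± 5.00 CPM (SD, n = 6) at 30 mM, with a log2 fold change of -0.18 (SE 0.108, 95% interval -0.40 to 0.03).

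At 10 mM the C4b values pointed the other way. Control wells were between 56.1 and 78.8 CPM (median 70.7) and ethanol wells between 74.2 and 86.4 CPM (median 82.2), with overlap. The means were 69.5 ± 8.04 and 81.4 ± 4.72 CPM (SD, n = 6 each), and the log2 fold change was 0.20 (SE 0.0869, 95% interval 0.03 to 0.37). The change at 30 mM minus that at 10 mM was -0.39 (SE 0.137, 95% interval -0.67 to -0.12). C4b was lower in the controls of experiment 1 than in those of experiment 2 (log2 difference -0.52, SE 0.0978), with no overlap of wells. In that comparison of controls 7.66% of 13479 genes tested were lower without overlap, 43.6% were called, and 22.3% were called lower. C4a, its near-identical paralog, was listed with at most 4 counts in a well and 60 in all, and how reads common to both genes were assigned is not given in the sources used here.

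The C1q chains form the recognition molecule of the classical pathway. At 30 mM, control and ethanol wells overlapped for each of them. C1qa was at 41.0 to 73.2 CPM (median 54.8) in controls and 43.6 to 68.8 CPM (median 60.7) at 30 mM, with a log2 fold change of 0.11 (SE 0.121, 95% interval -0.13 to 0.36). C1qb was at 48.1 to 90.7 CPM (median 72.6) and 49.8 to 88.1 CPM (median 70.1), with 0.06 (SE 0.120, 95% interval -0.19 to 0.30). For C1qc the wells ran from 36.3 to 63.1 CPM (median 48.1) without ethanol and from 30.4 to 56.1 CPM (median 45.1) with it, a log2 fold change of -0.12 (SE 0.135, 95% interval -0.39 to 0.16). All 3 intervals include 0, and each is wider than that of the same gene in experiment 2.

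In experiment 2 the C1q chains were several-fold more abundant, and the estimates were tighter. C1qa ran from 333 to 466 CPM (median 403) in controls and from 339 to 556 CPM (median 442) at 10 mM, with a log2 fold change of 0.10 (SE 0.0701, 95% interval -0.04 to 0.24). C1qb ran from 650 to 808 CPM (median 726) and from 701 to 930 CPM (median 750), a log2 fold change of 0.08 (SE 0.0557, 95% interval -0.03 to 0.19). The narrowest interval was that of C1qc, from -0.07 to 0.14 around 0.04 (SE 0.0535), with 450 to 511 CPM (median 469) in controls and 461 to 523 CPM (median 501) at 10 mM. Wells with and without ethanol overlapped for all 3 chains. The change at 30 mM minus the change at 10 mM was -0.00 for C1qa (95% interval -0.34 to 0.33), -0.04 for C1qb (95% interval -0.31 to 0.23) and -0.16 for C1qc (95% interval -0.44 to 0.11).

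C3ar1, the receptor through which the C3 fragment C3a acts on myeloid cells, lay near its controls at both doses, as the C1q chains did. It was at 18.9 to 30.7 CPM (median 23.1) in the controls of experiment 1 and 16.3 to 31.4 CPM (median 25.5) at 30 mM, with a log2 fold change of 0.12 (SE 0.156, 95% interval -0.20 to 0.43). In experiment 2 it was at 255 to 304 CPM (median 278) in controls and 247 to 293 CPM (median 263) at 10 mM, with a log2 fold change of -0.08 (SE 0.0597, 95% interval -0.19 to 0.04). The wells overlapped at both doses, and the changes differed by 0.18 (95% interval -0.13 to 0.49).

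The 4 microglial genes were set apart by the experiment, the difference by which they were listed. In control wells, experiment 1 minus experiment 2, the log2 difference was -2.87 for C1qa (SE 0.0843), -3.41 for C1qb (SE 0.0777), -3.29 for C1qc (SE 0.0794) and -3.54 for C3ar1 (SE 0.0902). For all 4 the wells of the control groups did not overlap (7.66% of 13479 genes tested were lower without overlap). The mean of C1qb was 70.1 ± 16.9 CPM (SD, n = 6) in the controls of experiment 1 and 728 ± 55.0 CPM (SD, n = 6) in those of experiment 2. For C3ar1 these means were 24.2 ± 4.16 and 276 ± 17.9 CPM (SD, n = 6 each). Experiment, sequencing batch and culture cannot be told apart in this comparison. Border macrophage markers differed in the same direction. They summed to 103 ± 24.8 CPM (SD, n = 6) in the controls of experiment 1 and 425 ± 17.7 CPM (SD, n = 6) in those of experiment 2. All 4 of these markers tested were called lower in experiment 1, beside 22.3% of all genes. Which cell type gave the C1q and C3ar1 RNA was not tested.

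**Figure D2:**
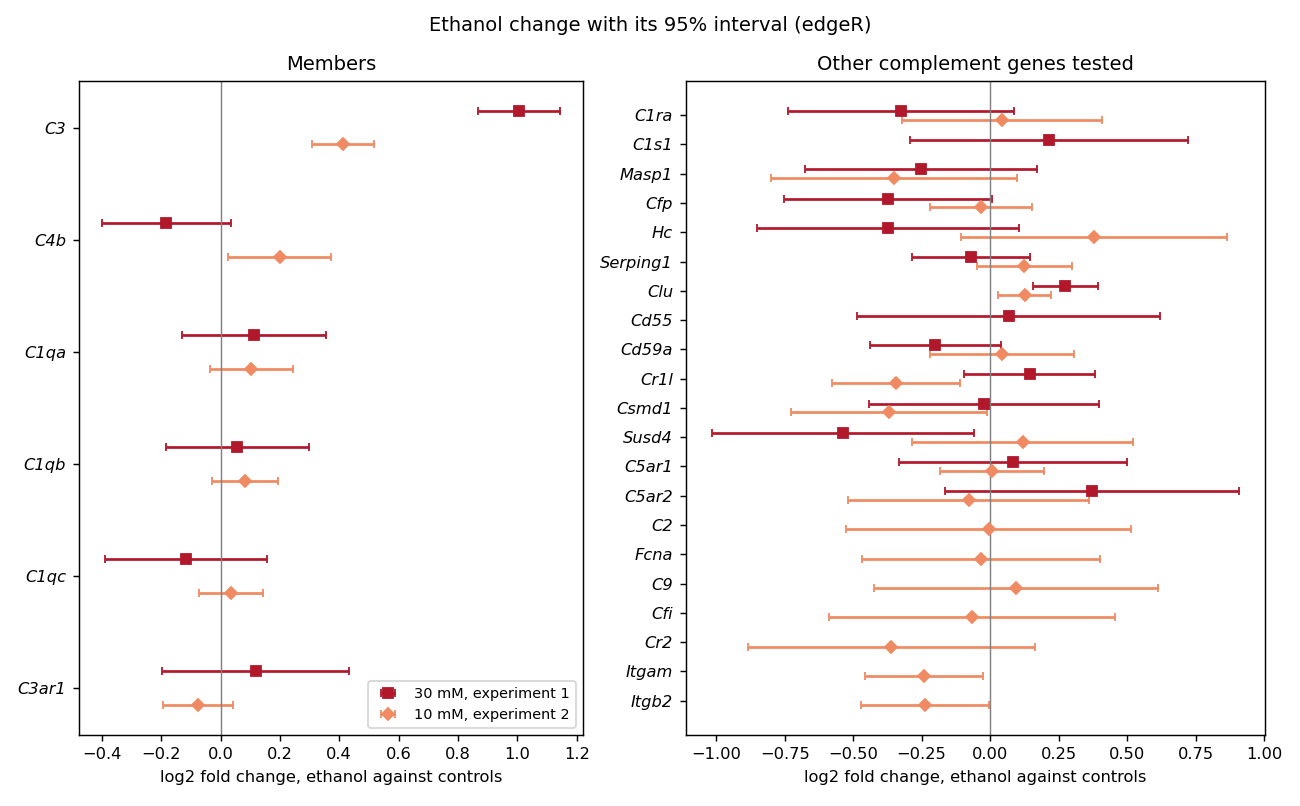
Log2 fold change of ethanol against the controls of the same experiment with its 95% interval from edgeR, for the 6 members (left) and other complement genes tested at either dose (right), squares for 30 mM and diamonds for 10 mM, with no change at the vertical line. C3 lies at 1.01 and 0.41, whereas the intervals of the C1q genes and C3ar1 include 0 at both doses.

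Since C1q and C3ar1 are microglial transcripts, they were read beside 18 microglia markers that share no gene with the members. The markers summed to 281 ± 56.2 CPM (SD, n = 6) in the controls of experiment 1 and 257 ± 34.6 CPM (SD, n = 6) at 30 mM, a difference of -23.4 CPM (two-sided exact permutation test, p = 0.396, also after adjustment over both experiments). In experiment 2 they summed to 2517 ± 120 CPM (SD, n = 6) in controls and 2605 ± 136 CPM (SD, n = 6) at 10 mM, a difference of 87.7 CPM (the same exact permutation test, p = 0.266, adjusted p = 0.396). Of the markers, 2 were at or under 3 counts in all wells of experiment 1, and P2ry12, a receptor of resting microglia, was at or under that floor in all 6 control wells there; no marker was at 0 in every well of an experiment. Cx3cr1, the fractalkine receptor, was called higher at both doses, by 1.07 at 30 mM (edgeR adjusted p = 0.0124) and 0.29 at 10 mM (edgeR adjusted p = 0.0357), and Fcrls at 10 mM by 0.35 (edgeR adjusted p = 0.0417). The other 9 of 10 markers tested at 30 mM and 12 of 14 at 10 mM were not called. Of all genes, 3.02% were called higher at 30 mM, 0.391% at 10 mM and 0.174% at both. In experiment 1 Cx3cr1 was near the floor, with 4 to 14 counts in control wells and 7 to 21 at 30 mM. With Cx3cr1, P2ry12, Tmem119 and Csf1r alone, the sum at 10 mM was higher than in controls by 27.0 CPM (exact permutation adjusted p = 0.039), and over the alternatives 0 to 2 markers were called at this dose.

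C1q kept close to this marker level in all groups. Members and markers were listed with the difference between the experiments known, so the shift they share between experiments is given as a description. The 3 chains together were 62.4 ± 4.81 CPM per 100 CPM of microglia markers in the controls of experiment 1 and 67.5 ± 4.22 at 30 mM (SD, n = 6 each). In experiment 2 the ratio was 63.7 ± 2.75 in controls and 65.7 ± 2.64 at 10 mM (SD, n = 6 each). The wells of all 4 groups overlapped on this ratio, although the C1q sum itself went from 176 ± 40.5 CPM in one control group to 1606 ± 121 CPM in the other (SD, n = 6 each). C3ar1 was 8.71 ± 0.823 and 9.86 ± 1.12 CPM per 100 CPM of markers in experiment 1 and 11.0 ± 0.934 and 10.2 ± 0.485 in experiment 2 (SD, n = 6 each, controls first). The C3ar1 ratio of the control groups did not overlap, at 7.33 to 9.64 in experiment 1 and 10.3 to 12.7 in experiment 2. This depends on the marker Sall1, which hardly differed between the control groups (log2 difference -0.04). The other 12 markers tested there ran from -4.42 to -1.35, so Sall1 takes a larger share of the sum in experiment 1. The C1q ratio has the same sum below it, so its closeness between the experiments also depends on Sall1. Whether C1q or C3ar1 kept 1 ratio to the other markers was not tested. C3, in contrast to C1q, was 206 ± 24.3 per 100 CPM of microglia markers in the controls of experiment 1 and 22.2 ± 1.36 in those of experiment 2 (SD, n = 6 each), whereas its own level overlapped between them.

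The make-up of the C1q sum was also read, as shares of 3′ tags and not of molecules. C1qb held 39.9% ± 2.49 of the C1q tags in the controls of experiment 1 and 45.3% ± 0.411 in those of experiment 2 (SD, n = 6 each). C1qa held 31.9% ± 2.47 and 25.0% ± 1.04 in the same wells, and no well of one control group overlapped with the other for either share. With ethanol, C1qb stood at 40.6% ± 1.32 at 30 mM and 45.6% ± 1.26 at 10 mM (SD, n = 6 each), overlapping with their controls. The cause of the shift between experiments was not tested.

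**Figure D3:**
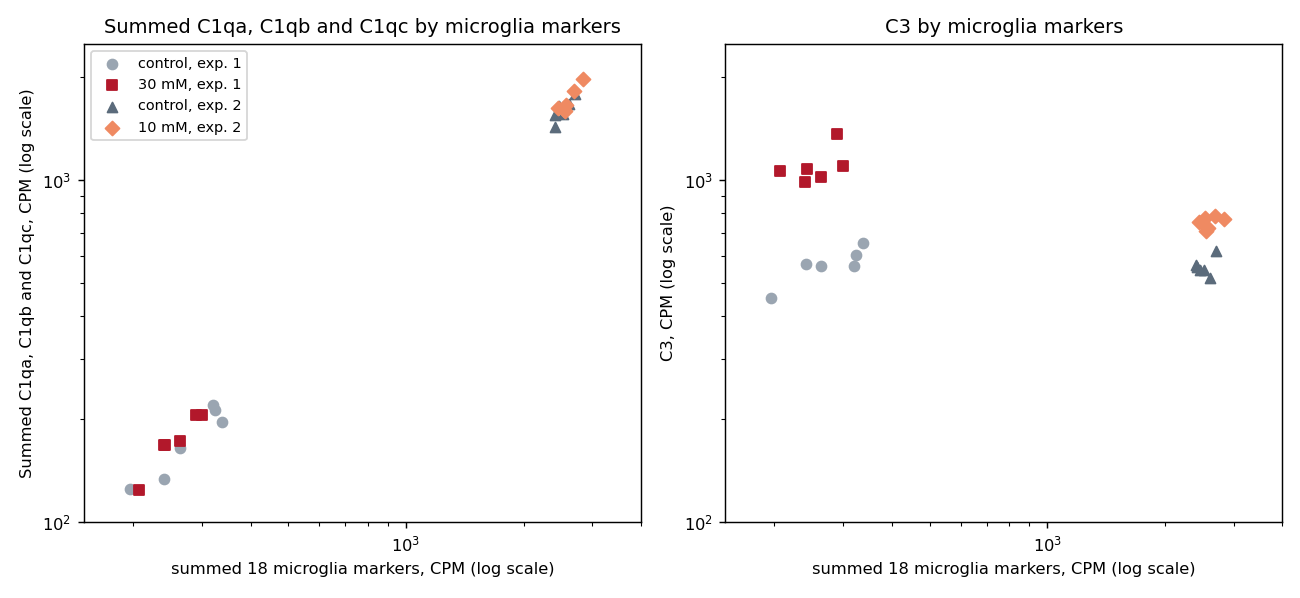
Each well's summed C1qa, C1qb and C1qc (left) and C3 (right) in CPM against the summed 18 microglia markers in CPM, all axes on a log scale, with 1 symbol for each group. The C1q sum moves with the markers from 196 to 2835 CPM, whereas C3 in the control wells lies between 451 and 653 CPM at both ends of that range.

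Within a group, wells with more microglia marker RNA had more C1q. Across the 6 wells of each group, 12 relations were computed on log2 CPM and p-values were adjusted over them. Pearson's r between the C1q sum and the marker sum was 0.948 in the controls of experiment 1 (exact permutation p = 0.00833, adjusted p = 0.0444) and 0.968 at 30 mM (exact permutation p = 0.00278, adjusted p = 0.0333). It was 0.844 in the controls of experiment 2 (exact permutation p = 0.0306, adjusted p = 0.0733) and 0.946 at 10 mM (exact permutation p = 0.0181, adjusted p = 0.0542), which missed the threshold. Spearman's rho in the same order was 0.771, 0.943, 0.886 and 0.771 (exact permutation p = 0.103, 0.0167, 0.0333 and 0.103), with no adjusted p under 0.2. Without the 2 wells farthest from the median marker level, r was 0.839 and 0.932 in experiment 1, but 0.442 and 0.134 in experiment 2, where the relation rests on those wells. With CPM from the total count alone, both adjusted p in experiment 1 were 0.05.

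C3 followed the microglia markers in the controls of experiment 1, with r = 0.882 (exact permutation p = 0.0111, adjusted p = 0.0444) and rho = 0.8286 (exact permutation p = 0.0583, adjusted p = 0.233), and r = 0.675 without the 2 farthest wells (r = 0.851 and an adjusted permutation p of 0.05 by total count alone). Replicate 6 of these controls was lowest in C3 (451 CPM), in the microglia sum (196 CPM) and in the astrocyte sum (4234 CPM). The relation of C3 with astrocyte markers was not tested, so this r is not particular to microglia markers. In the other groups r was 0.494 at 30 mM, 0.338 in the controls of experiment 2 and 0.420 at 10 mM (exact permutation p = 0.325, 0.544 and 0.424), and rho was 0.657, -0.0857 and 0.257 (exact permutation p = 0.175, 0.919 and 0.658). No tie between C3 and C4b was seen from well to well. Their r was 0.0791, 0.208, 0.0508 and 0.759 in the controls of experiment 1, at 30 mM, in the controls of experiment 2 and at 10 mM (exact permutation p = 0.875, 0.728, 0.924 and 0.0903), and rho was 0.2, 0.143, -0.257 and 0.6 (exact permutation p = 0.714, 0.803, 0.658 and 0.242). None passed after adjustment, and at 10 mM r turned to -0.532 without the 2 farthest wells. With 44 to 138 counts of C4b in a well, counting noise could hide a tie, so none is excluded.

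Astrocytes were read beside C3, as it is a marker of their reactive state. At 30 mM, 6 of 10 astrocyte markers tested were called higher, where 3.02% of all genes were. Slc1a2, a glutamate transporter, was at 388 ± 31.4 CPM in controls and 576 ± 79.1 CPM at 30 mM (SD, n = 6 each), higher by 0.62 on the log2 scale (edgeR adjusted p = 4.31e-09), and Aqp4, the water channel of astrocyte endfeet, rose by 0.56 (edgeR adjusted p = 4.97e-08). At 10 mM edgeR called none of the 10 (2 had an unadjusted p under 0.05, and DESeq2 called 0), and Slc1a2 and Aqp4 were at -0.01 and -0.05. The markers summed to 5025 ± 424 CPM in controls and 6213 ± 636 CPM at 30 mM, and to 4789 ± 107 CPM in controls and 4891 ± 258 CPM at 10 mM (SD, n = 6 each).

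C3 was also higher relative to the astrocyte markers. C3 per 100 CPM of those markers was 11.2 ± 0.503 in the controls of experiment 1 (10.6 to 12.1) and 17.7 ± 0.831 at 30 mM (16.5 to 18.4; SD, n = 6 each). In experiment 2 it was 11.7 ± 0.901 in controls (10.7 to 13.2) and 15.4 ± 0.948 at 10 mM (14.2 to 16.8; SD, n = 6 each). Ethanol and control wells did not overlap on this ratio in either experiment. Since C3 was listed for being higher with ethanol, the ratio carries that choice and is given as a description. A ratio to the astrocyte markers was not computed for other genes. The 30 mM well with the highest C3, replicate 2, also had the highest astrocyte sum, 7495 CPM, and its ratio lay within those of the other wells. The part of either cell type in the level of C3 was not tested.

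**Figure D4:**
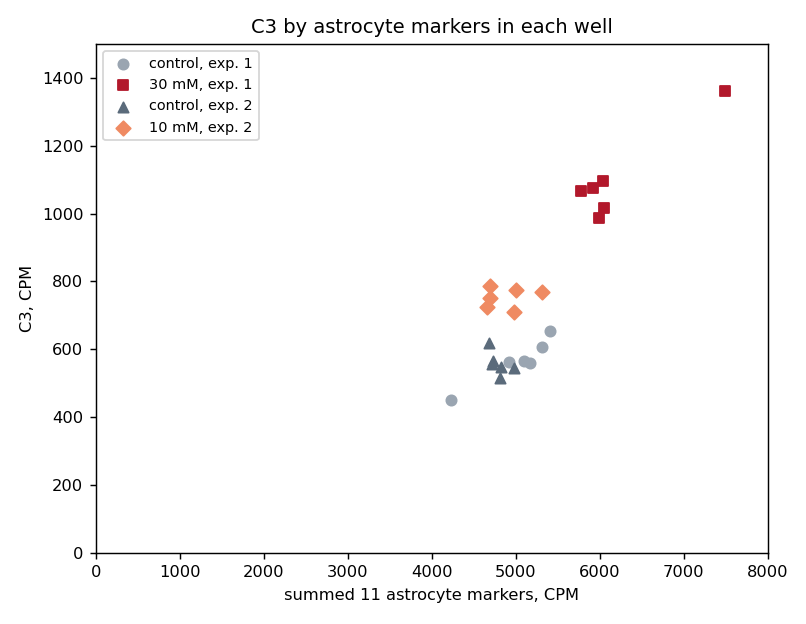
C3 in CPM against the summed 11 astrocyte markers in CPM, 1 point per well, both axes linear from 0. At 10 mM the wells lie above their controls (709 to 787 against 516 to 620 CPM of C3) over an overlapping range of astrocyte markers, while at 30 mM both values are higher.

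The rest of the complement system was read from a list of 47 genes, of which 17 were above 3 counts in all 24 wells and 11 at or under 3 counts in all of them. At 30 mM, 15 were tested and 1 was called, where 9.67% of all genes were, so that the count is near that share. Their median log2 fold change was -0.02 beside 0.02 for all genes. At 10 mM, where 0.657% of all genes were called, 20 were tested and edgeR called 0 (5 had an unadjusted p under 0.05, and DESeq2 called 0), with a median of -0.03 beside -0.00. For the difference between the doses 22 were tested and edgeR called 0 (4 had an unadjusted p under 0.05).

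The 1 gene called, at 30 mM, was Clu, which encodes clusterin, a secreted chaperone that restrains the terminal complex and is abundant in astrocytes. It was between 1389 and 1751 CPM in controls (median 1645) and between 1715 and 2167 CPM at 30 mM (median 1880), so the groups overlapped slightly. On the log2 scale Clu was higher by 0.27 (SE 0.0589), with an adjusted p of 0.00126 in edgeR. At 10 mM the wells ran from 1280 to 1443 CPM against 1170 to 1318 CPM in controls, or 0.13 on the log2 scale (SE 0.0492), with an adjusted p of 0.311 in edgeR.

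Among classical and lectin pathway proteins, 3 of 14 were tested at 30 mM and 4 of 14 at 10 mM. C1ra, the protease bound to C1q, was the most abundant, at -0.33 at 30 mM (edgeR adjusted p = 0.344) and 0.04 at 10 mM (edgeR adjusted p = 0.967), and reads common to it and C1rb may be split between them. Of the alternative pathway, Cfd (factor D, the protease of the pathway) had 0 counts in all 24 wells and Cfb (factor B) at most 2 in a well. Cfp (properdin, which stabilises the C3 convertase) was the only one tested, at -0.37 at 30 mM (edgeR adjusted p = 0.223) and -0.03 at 10 mM (edgeR adjusted p = 0.946).

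Of 7 terminal pathway genes, Hc, which encodes C5, had the highest mean over all 24 wells, although C9 was as high in the controls of experiment 2 (8.20 CPM beside 8.15 CPM). Hc was at 13.6 ± 2.97 CPM in the controls of experiment 1 (SD, n = 6). Its log2 fold change was -0.37 at 30 mM (edgeR adjusted p = 0.352) and 0.38 at 10 mM (edgeR adjusted p = 0.634). Cr1l (Crry, the membrane regulator that limits C3 deposition on rodent cells) was at 0.14 at 30 mM (edgeR adjusted p = 0.495) and -0.34 at 10 mM (edgeR adjusted p = 0.199). C5ar1, the receptor for C5a, was at 0.08 and 0.01 (edgeR adjusted p = 0.852 and 0.99).

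Between the control groups, 11 of 19 other complement genes tested were called, 3 higher and 8 lower in experiment 1, beside 21.3% of all genes higher and 22.3% lower. Like C1q and C3ar1, genes of phagocytes were among the lower ones. Itgam and Itgb2, the chains of complement receptor 3, which binds cleaved C3, were at log2 differences of -3.62 and -2.90 (edgeR adjusted p = 1.49e-31 and 3.15e-23). C5ar1 was at -1.97 (edgeR adjusted p = 1.7e-22) and Cfp at -2.02 (edgeR adjusted p = 5.21e-25). Fcna, Csmd1 and Cr2 were also lower. The higher ones were Clu at 0.36 (edgeR adjusted p = 3.47e-08), Cd59a at 0.60 (edgeR adjusted p = 5.25e-05) and Hc at 0.68 (edgeR adjusted p = 0.0154), which lost its call without replicate 1 of the controls of experiment 1 or replicate 2 of those of experiment 2 (edgeR adjusted p = 0.0571 and 0.0703).

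Genes whose level varied most like each member were sought among 13350 genes, by Pearson's r over 24 wells of log2 CPM with each group's mean removed. This is a description, since wells share libraries, depth and normalization. For C3 the 5 nearest were Ldhb (r = 0.834), Lrrtm3 (0.813), Clu (0.811), Rtn1 (0.806) and Dhrs1 (0.804). Clu was the only complement gene among them. For C4b they were Rint1 (0.737), 4833420G17Rik (0.737), Pigv (0.736), Gpr173 (0.713) and Cdadc1 (0.695). The C1q sum was nearest to genes of microglia and macrophages: Tyrobp (0.871), Lyz2 (0.849), Trem2 (0.848), Fcgr3 (0.820) and Cd68 (0.818). Not every pooled r held within each group. For C3, Lrrtm3 was at 0.199 in the controls of experiment 2 and -0.0867 at 10 mM, and Ldhb at 0.149 at 10 mM. Clu stayed between 0.737 and 0.932 in the 4 groups. For C4b, Cdadc1 was at -0.282 in the controls of experiment 1.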

How the data were processed

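Counts of 3′ tag reads per gene were analysed in 24 wells, 4 groups of 6. The authors deposited raw counts, whole numbers in 1 table of 55359 Ensembl identifiers, of which 52083 (94.1%) were matched to a symbol and 3276 were not. Reads were single-end, 100 bases, per the labels' protocols. The submitters' processing notes name cutadapt 1.18, STAR and GRCm39. The counter, annotation, use of strand and treatment of PCR duplicates are not given in the sources used here, so counts of overlapping, antisense or near-identical genes are uncertain, and floors cover counting error only.

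Ethanol wells were compared with the controls of the same experiment in edgeR 4.0.16 (R 4.3.3) by the quasi-likelihood test, with TMM, filterByExpr at 10 counts and Benjamini-Hochberg adjustment over all genes tested. An interaction term in a fit of all wells gave the difference between doses, and the controls of the experiments were compared in a fit of their own. Log2 CPM for relations used a prior count of 2. Microglia sums and relations were tested by exact permutation. Alternatives were library size without TMM, no low-count filter, DESeq2 1.42.0, 1 fit of all wells, a replicate block, another prior count, fewer microglia markers, and each well left out in turn. The procedure was tested on simulated data.

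The members, the 6 sublists of 47 complement genes and the 9 marker lists were chosen with earlier results of these data known. Named genes were the members, complement genes called (up to 6 a dose by p), the most abundant gene of each sublist and the 5 nearest in likeness. Genes called between the control groups, Cfd, Cfb, C4a and the markers were named after their values were seen. Likeness was limited to genes with a mean log2 CPM of at least 3. Promoters came from RefSeq on GRCm38.p6, and no coordinates were moved between builds. Counts of 60 pairs of wells within groups differed by more than sampling noise (chi-square divided by its degrees of freedom, 1.07 to 2.88), so no library was an exact copy of another of its group. Pairs across groups were not compared in this way, and technical copies such as a split library were not tested for. Each well was counted as a replicate as labelled, and these values do not show that wells are independent. Values of 1 listed complement gene are not reported here.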

Additional observations from a re-analysis of the deposited data

Results flagged for a closer look

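C3 in replicate 2 at 30 mM, 1362 CPM, lay far from the other 5 wells of its group, which were between 986 and 1097 CPM. The same well had the outlying sum of astrocyte markers, 7495 CPM beside 5781 to 6049 CPM, and of border macrophage markers, 90.1 CPM beside 59.2 to 69.0 CPM. In replicate 1 at 30 mM the mature oligodendrocyte markers summed to 16054 CPM, beside 9070 to 9522 CPM in the others. Hc in replicate 4 at 30 mM was at 16.5 CPM, beside 7.47 to 9.56 CPM. Clu in replicate 6 of the controls of experiment 1 was at 1389 CPM, beside 1622 to 1751 CPM. C3ar1 in replicate 5 at 10 mM was 9.21 CPM per 100 CPM of microglia markers, beside 10.3 to 10.6. In all, 100 series of 6 wells were examined for a well far from the rest, 7 had one, and chance gives 1 in 20, here 5.

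The ethanol change of C3 was larger at 30 mM than at 10 mM, by 0.58 on the log2 scale in the interaction over all wells. Dose and experiment cannot be told apart in it.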

How the results depend on the processing

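The log2 fold change of C3, given as a description, was 0.97 to 1.01 at 30 mM, 0.41 to 0.44 at 10 mM and 0.52 to 0.61 for the difference over the alternatives, and 0.95 to 1.05, 0.39 to 0.45 and 0.50 to 0.60 with each well left out. Signs of values near 0 turned: the C1qa difference was 0.0217 with library size alone and 0.0229 with the replicate block, and the C3 difference between controls was 0.0341 without a low-count filter and 0.0126 with DESeq2. With 1 well left out, C1qb at 30 mM ranged from -0.0156 to 0.139, the C1qa difference from -0.0838 to 0.0757, the C1qb difference from -0.128 to 0.0325, and C3 between controls from -0.0469 to 0.0392. The same held for C5ar1 at 30 mM (-0.0325 to 0.192), at 10 mM (-0.0431 to 0.0624) and for its difference (-0.0646 to 0.150), and for C1ra (-0.0923 to 0.168) and Cfp (-0.0832 to 0.0162) at 10 mM. Hc between controls lost its call without control replicate 1 of experiment 1 (0.57, edgeR adjusted p = 0.0571) or replicate 2 of experiment 2 (0.51, edgeR adjusted p = 0.0703). Among all genes, 89 were called at 10 mM, against 59 by DESeq2, 21 in 1 fit of all wells and 37 to 95 with a well left out (40 and 45 without ethanol replicates 2 and 4, 57, 37 and 46 without control replicates 4, 5 and 6). The difference between doses called 481, or 329 to 759 with a well left out (759 and 723 without 30 mM replicates 1 and 2). Microglia markers called at 10 mM numbered 0 to 2 over the alternatives. The 4 defining microglia markers differed by 5.92 CPM at 30 mM and by 27.0 CPM at 10 mM (exact permutation adjusted p = 0.167 and 0.039). With library size alone, r of C3 with C4b was -0.687 in the controls of experiment 1 and -0.0391 at 30 mM, and r of C1q (0.941 and 0.944) and of C3 (0.851, controls) with microglia markers in experiment 1 had an adjusted permutation p of 0.05. The cause of these shifts was not tested.

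The replicate numbers did not pair the wells: correlations of same-numbered wells were -0.184 to 0.253 in experiment 1 (1 of 6 over 0.1) and -0.0444 to 0.0439 in experiment 2 (0 of 6), and 1 of 6 and 0 of 6 correlated best with their own number. The block turned the sign given above and moved the markers called at 10 mM to 0. It moved no other count by over 1.5 times. Depth limited the genes near 3 counts, among them many complement genes and P2ry12.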

Other observations

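Over 24 wells with group means removed, the pairwise correlations among the members are given as a description, since the wells share libraries and normalization. C1qb was nearest to C1qc (r = 0.844) and C1qa (r = 0.821), and C1qa and C1qc stood at 0.626. C3ar1 stood at 0.703 to 0.745 with the 3 chains. C3 stood at 0.454 to 0.600 with the chains and at 0.557 with C3ar1, and C4b at 0.357 to 0.487 with the chains. C3 with C4b was the lowest of the pairs, at 0.161. C4b had 44 to 138 counts in a well, so counting noise limits its r. The low value does not show that C3 and C4b vary apart.

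The remaining cell type lists give the other cells in these wells. Fibroblast and mural markers summed to 867 ± 119 CPM in the controls of experiment 1 and 391 ± 23.3 CPM at 30 mM (SD, n = 6 each), with 5 of 8 genes tested called lower (6.65% of all genes), the collagen gene Col1a1 among them (log2 fold change -0.80, edgeR adjusted p = 2.35e-07). At 10 mM, 1 of 7 was called lower (0.266% of all genes). Mature oligodendrocyte markers were called higher in 7 of 8 genes at 30 mM (3.02% of all genes) and 2 of 8 at 10 mM (0.391% of all genes). Replicate 1 at 30 mM had the outlying sum of 16054 CPM, beside 9070 to 9522 CPM in the others. Border macrophage markers gave 1 called lower of 3 at 30 mM and 0 of 4 at 10 mM (3 of these 4 at an unadjusted p under 0.05 in edgeR). Neuron markers gave 0 of 5 at 30 mM and 1 higher of 5 at 10 mM. Markers of endothelial cells (3 tested), of monocytes and neutrophils (2 tested) and of oligodendrocyte precursors (6 tested) had 0 called by edgeR at either dose, with 1, 1 and 0 at an unadjusted p under 0.05 at 30 mM and 1, 0 and 2 at 10 mM. Their part in the level of C3 was not tested.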
